A study of Homo sapiens with 6 samples.

Results

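The 39 genes described here serve DNA replication and S phase. They were listed by symbol for their role in origin licensing, the replication fork, nucleotide supply or control of the G1/S transition, and the rule itself uses no measured value. All 39 were found by Ensembl identifier among the 19937 genes of the count table, and all 39 were among the 12450 genes that passed the filter on low counts. The libraries came from U2OS, an established human osteosarcoma cell line. Cells were made stable carriers of a lentiviral pGIPZ hairpin against SQLE, the squalene epoxidase of cholesterol synthesis (genotype SQLE-shRNA, shSQLE, 3 libraries), or of a scrambled hairpin (genotype scrambled-shRNA, shControl, 3 libraries). Both lines had been grown under puromycin for selection, no time point other than this stable state was sampled, and the silenced arm rests on 1 chosen hairpin. The study describes its replicates as technical unless it specifies otherwise, and nothing found for these libraries says that they were separate cultures, so the p-values below measure only the spread between these libraries, which may be technical.

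Before S phase, the origin recognition complex (ORC) with CDC6 and CDT1 loads the MCM2-7 ring onto DNA, which licenses an origin to fire once per cycle. MCM10, CDC45 and the GINS complex turn the loaded ring into an active helicase, primase and DNA polymerase alpha start each strand, and polymerases epsilon and delta extend it behind the PCNA clamp that replication factor C (RFC) loads. The genes of these proteins, of dNTP synthesis and of cyclin E are classical targets of the E2F transcription factors, which are released when cyclin-dependent kinases phosphorylate the retinoblastoma protein, so that their mRNA levels rise together as cultured cells pass from G1 into S.

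Many promoters of these genes share a sequence feature that the listing did not use. RefSeq promoter windows (GRCh38.p14, 250 bases before to 50 bases after the start of each gene) were matched for 33 of the 39 genes. They were searched on both strands for 4 E2F-type motifs of 8 letters, TTTCCCGC, TTTCGCGC, TTTGGCGC and TTTGCCGC, of which matches on opposite strands can overlap. At least 1 match was present in 19 of the 33 windows (57.6%), against 550 of the 10124 windows matched for all genes tested (5.43%) and 908 of all 27305 windows (3.33%). For the other cell cycle genes listed by role further below, 17 of the 93 windows matched had one (18.3%). A match is a description of letters and not a measured binding site. MCM4, MCM5, GINS4, CCNE2, CDK2 and CCND1 were not among the windows used here. The stretches of 30 bases below show the motif in capitals for genes of licensing, the fork and nucleotide supply and for E2F1 itself, written 5′ to 3′ on the strand of the gene, with coordinates on GRCh38.p14.
MCM6, chr2:135876511-135876540, minus strand: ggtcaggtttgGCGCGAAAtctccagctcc
MCM7, chr7:100101566-100101595, minus strand: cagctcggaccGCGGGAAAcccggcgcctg
PCNA, chr20:5126663-5126692, minus strand: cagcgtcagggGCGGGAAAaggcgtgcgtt
POLA2, chr11:65261898-65261927, plus strand: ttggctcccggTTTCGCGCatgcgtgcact
TYMS, chr18:657603-657632, plus strand: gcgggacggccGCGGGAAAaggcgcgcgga
E2F1, chr20:33686387-33686416, minus strand: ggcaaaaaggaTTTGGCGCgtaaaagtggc
GCGGGAAA in MCM7, PCNA and TYMS is TTTCCCGC read on the opposite strand, and GCGCGAAA in MCM6 is TTTCGCGC. In MCM6 the letters just before the capitals make TTTGGCGC on the gene's own strand, which overlaps the marked match, and a second such pair brings its window to 4 matches. The MCM6, PCNA, POLA2, TYMS and E2F1 stretches lie within 100 bases before the RefSeq start of the window, from -97 to -68, -70 to -41, -64 to -35, -50 to -21 and -31 to -2, and the MCM7 stretch at -198 to -169. GENCODE places the starts of MCM7, POLA2 and PCNA elsewhere. MCM7 begins there at 100101940 on the minus strand, so that its stretch lies inside the gene. POLA2 begins at 65261913, inside its stretch. PCNA begins at 5126626 on the minus strand, a few bases from the RefSeq start, and its stretch still lies before the gene. In the expression data set out below, the 19 genes with a match had a median log2 fold change of 0.098 and the 14 without one 0.14, both close to the median of all 39.

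Library totals ranged from 12212378 to 14393292 counts on genes. SQLE, the targeted gene, had normalized counts of 1349, 1867 and 1924 in shControl and 229, 204 and 219 in shSQLE, a mean in shSQLE of 12.7% of shControl (log2 fold change -2.98, standard error 0.17, edgeR quasi-likelihood test with Benjamini-Hochberg adjustment, adjusted p = 0.000299). A normalized count is the count of a gene scaled to the mean effective library size. In each library, 5 of 6 osteosarcoma and mesenchymal markers were above the floor of 3 counts and THY1 was at 0, while 1 of 4 epithelial markers, 0 of 5 blood markers and 0 of 3 endothelial markers were above it in every library. The library shControl 1 stood apart from its group: the differences between its counts and those of shControl 2 and 3 gave chi-square values of 53.9 and 63.8 per degree of freedom over genes, against 2.83 between shControl 2 and 3 and 3.40 to 15.9 among the shSQLE libraries. The main results are therefore given for all 6 libraries and without shControl 1.

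**Figure D1:**
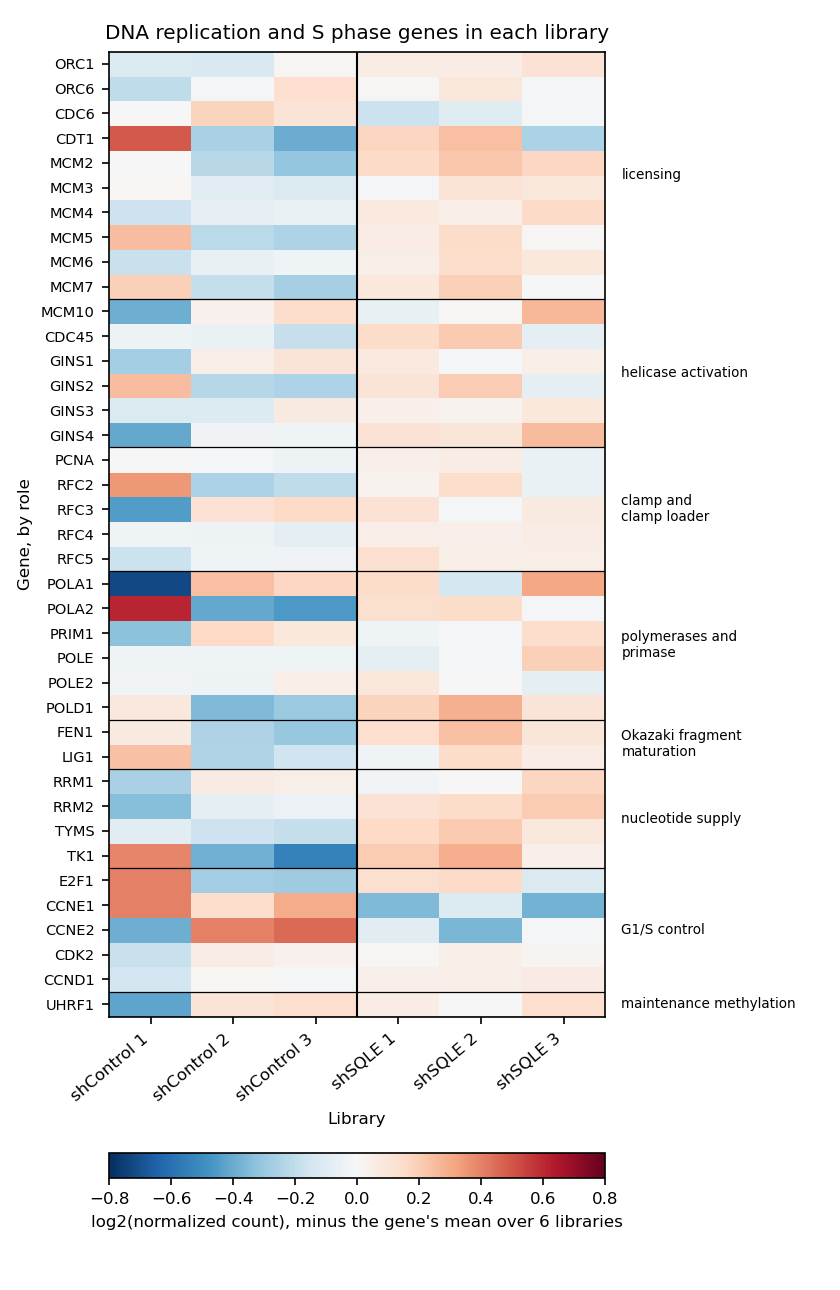
Log2 normalized count of each of the 39 genes (rows, grouped by role) in each of the 6 libraries (columns), minus the mean of the gene over the 6 libraries, on a colour scale from -0.8 (blue) to 0.8 (red). The shSQLE columns are mostly pale red, CCNE1 is blue in all 3 of them, and shControl 1 departs in both directions from shControl 2 and 3, most in POLA1 and POLA2.

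The single comparison of the series, shSQLE against shControl, asks which genes change on silencing of SQLE. In the 6 libraries, 0 of the 39 genes passed an adjusted p of 0.05 (edgeR, quasi-likelihood test, Benjamini-Hochberg adjustment over all genes tested), where 3.21% of all genes tested did, 2.84% lower and 0.369% higher. At an unadjusted p under 0.05 there were 6 of 39, against 14.7% of all genes, and with DESeq2 1 gene passed an adjusted p of 0.05 (CCNE1, lower in shSQLE), where 5.01% of all genes did, 3.93% lower and 1.08% higher. The fitted differences were small: 30 of the 39 log2 fold changes were under 0.2 in size, and for all 39 the 95% interval lay within 1 on either side of 0, for 24 of them within 0.5. In bulk RNA, a change in the share of cells in S phase and a change in RNA per cell cannot be told apart.

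The small differences lay mostly on 1 side. The log2 fold change was above 0 in 36 of 39 genes (92.3%), against 48.4% of all genes tested, with a median of 0.10 against -0.01 for all genes. Genes of 1 cell cycle program move together and are not independent of one another, so this is a description of these libraries, and the number above 0 was 33 of 39 with scaling by library size only, 31 of 39 with offsets for GC content and length, and 26 of 39 without shControl 1. The median of the gene-wise deviations was -0.039, -0.053 and -0.033 in shControl 1, 2 and 3 and 0.060, 0.061 and 0.060 in the shSQLE libraries, and the summed normalized counts of the 39 genes were 91129, 88813 and 87859 against 97825, 100738 and 98489. Both summaries were higher in each shSQLE library than in each shControl library. Gene by gene, all 3 shSQLE libraries lay above all 3 shControl libraries in 12 genes and below in 2 (35.9% together, against 22.1% of all genes tested, 10.0% above and 12.1% below). Those above were ORC1, MCM2, MCM4, MCM6, GINS4, RFC4, RFC5, POLD1, FEN1, RRM2, TYMS and CCND1, and those below were CDC6 and CCNE1. Without shControl 1, where 2 controls leave more room for groups to fall apart, there were 22 above and 4 below (66.7% together, against 59.9% of all genes tested, 28.6% above and 31.3% below), the additional genes below being CCNE2 and RFC3.

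The fits differed in which genes they called. Without shControl 1, edgeR called 17 of the 39 genes (43.6%), 14 higher and 3 lower in shSQLE, against 33.9% of all genes tested in that fit, of which 15.6% were higher and 18.3% lower. Leaving out any other library called 0 of the 39. An edgeR fit with offsets for GC content and transcript length, chosen after the data had been seen, called 9 (23.1%, 8 higher and CCNE1 lower) against 17.5% of all genes, 7.14% higher and 10.4% lower. DESeq2, the fit without shControl 1 and the fit with offsets each called CCNE1 lower in shSQLE. MCM2, POLD1, FEN1, RRM2, TYMS and TK1 were called higher both without shControl 1 and with the offsets, and MCM4 and GINS4 with the offsets but not without shControl 1. The other genes called higher without shControl 1 were not called with the offsets. Their log2 fold changes with the offsets were 0.13 for CDT1, 0.14 for MCM5, 0.15 for MCM7 and 0.10 for GINS2. For RFC2, POLA2, LIG1 and E2F1 they were 0.0034, 0.12, 0.11 and 0.099. CDC6 and CCNE2, called lower without shControl 1, were not called with the offsets (edgeR adjusted p = 0.109 and 0.0504).

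**Figure D2:**
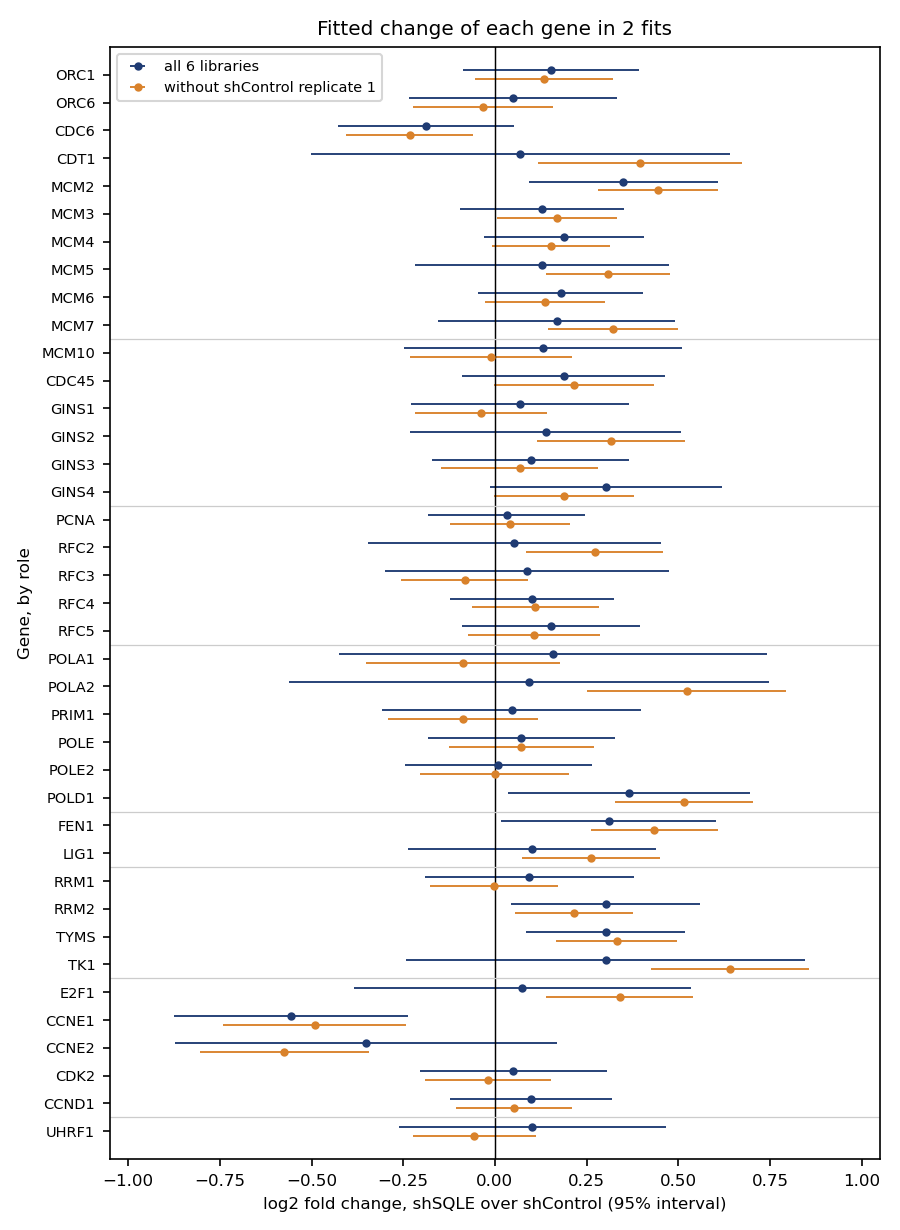
Fitted log2 fold change, shSQLE over shControl, with its 95% interval (x axis) for each of the 39 genes (y axis, by role), from edgeR on all 6 libraries (blue) and without shControl 1 (orange). With 6 libraries most intervals include 0, and those of CDT1, POLA1 and POLA2 are among the widest. Without shControl 1 the intervals are narrower, CDT1, POLA2 and TK1 sit further to the right, and CCNE1 and CCNE2 lie to the left of 0.

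Of the 5 G1/S regulators among the 39 genes, CCNE1 had the smallest p with 6 libraries. CCNE1 (ENSG00000105173, chromosome 19, 29811991 to 29824312 on hg38, GENCODE annotation, as for all gene positions below) encodes cyclin E1, the partner that activates CDK2 for entry into S phase. Its normalized counts were 505, 421 and 469.9 in shControl and 299.6, 355 and 294 in shSQLE, or 465 ± 42.3 in shControl and 316 ± 33.6 in shSQLE (SD, n = 3 each). The highest shSQLE library was below the lowest shControl library, and the mean was 68.0% of that in shControl. The log2 fold change was -0.56 (standard error 0.14, 95% interval -0.87 to -0.24, edgeR adjusted p = 0.0848). The edgeR adjusted p without shControl 1 was 0.00691 at -0.49, with the offsets it was 0.00163 at -0.62, and DESeq2 gave 0.0251 at -0.54, so that the call rests on the fit while the direction was the same in each.

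CCNE2, the paralog cyclin E2, had normalized counts of 499, 864 and 892 in shControl and 616, 506 and 646 in shSQLE. The 3 shSQLE libraries lay below shControl 2 and 3 and above shControl 1, which itself was -0.81 on the log2 scale from the mean of the other controls. The log2 fold change was -0.35 (-0.87 to 0.17, edgeR adjusted p = 0.564) with 6 libraries and -0.57 (-0.80 to -0.34, edgeR adjusted p = 0.00192) without shControl 1. CCNE2 overlaps INTS8 and NDUFAF6 on the opposite strand, and whether the counting used strand is not stated. E2F1, the transcription factor of the program, had normalized counts of 2527, 1574 and 1569.5 in shControl and 2084, 2121 and 1763 in shSQLE, where shControl 1 was the highest of the 6 libraries. Its log2 fold change was 0.074 with 6 libraries (edgeR adjusted p = 0.918) and 0.34 without shControl 1 (edgeR adjusted p = 0.0141). The kinase CDK2 and cyclin D1 (CCND1), which acts with CDK4 and CDK6 earlier in G1, had log2 fold changes of 0.051 and 0.10 and passed no test in either fit. CDK2 and CCND1 overlap PMEL and LTO1, in that order, on the opposite strand.

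**Figure D3:**
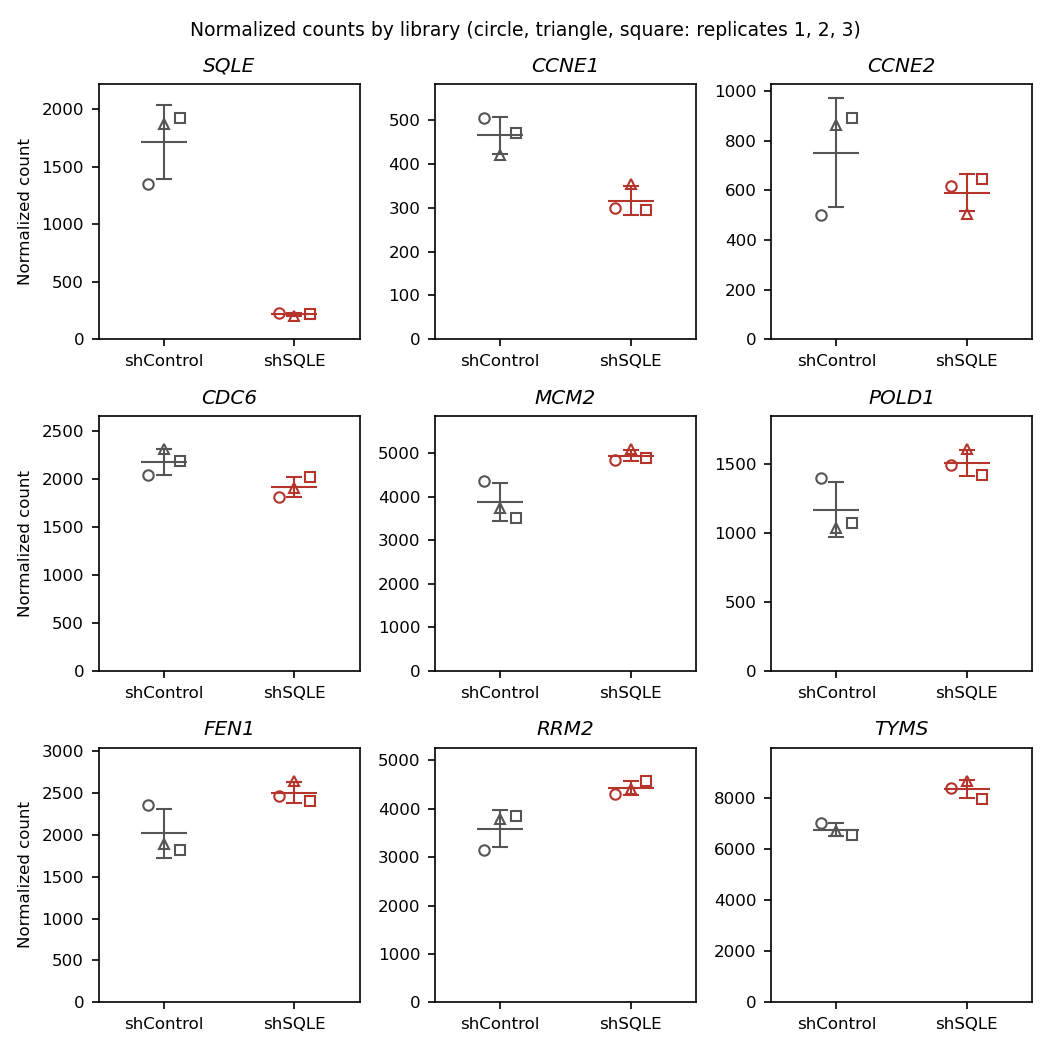
Normalized counts (y axes, from 0) of SQLE and 8 of the 39 genes in shControl (grey) and shSQLE (red), with circles, triangles and squares for replicates 1, 2 and 3, and bars for the mean and SD of 3 libraries. SQLE and CCNE1 are lower in every shSQLE library, MCM2, POLD1, FEN1, RRM2 and TYMS are higher in every one, and the shControl circle lies apart from the triangle and square in CCNE2, POLD1 and FEN1.

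Among the 10 licensing genes, the MCM ring and the loader CDC6 had values of opposite sign. The median log2 fold change was 0.14, 9 of 10 were above 0, and 0 were called with 6 libraries, while 4 were called higher and 1 lower without shControl 1. MCM2 (ENSG00000073111, chromosome 3, 127598410 to 127622436), a subunit of the helicase ring, had normalized counts of 4366, 3738 and 3518 in shControl and 4843, 5086 and 4886 in shSQLE, or 3874 ± 440.3 in shControl and 4938 ± 129 in shSQLE (SD, n = 3 each). All shSQLE libraries lay above all shControl libraries, and the log2 fold change was 0.35 (standard error 0.11, 0.092 to 0.61, unadjusted p = 0.0140 and adjusted p = 0.180 in edgeR), 0.45 without shControl 1 (edgeR adjusted p = 0.00106). MCM4 had normalized counts of 5516, 5919.7 and 5979 in shControl and 6529, 6416 and 6890.5 in shSQLE, and a log2 fold change of 0.19 (edgeR adjusted p = 0.429), again without overlap. Without shControl 1 its edgeR adjusted p was 0.131, and with the offsets 0.0369 at 0.18.

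MCM5 had normalized counts of 3549.7, 2567 and 2511 in shControl and 3114, 3311 and 3004 in shSQLE. MCM7 had 9647, 7425 and 7035 in shControl and 8967, 9664 and 8457 in shSQLE. In both of these ring subunits shControl 1 lay above shControl 2 and 3 and within or above the shSQLE libraries, and the log2 fold changes of 0.13 and 0.17 became 0.31 and 0.32 without it (edgeR adjusted p = 0.00981 and 0.0103). MCM7 overlaps AP4M1 on the opposite strand. MCM3 and MCM6 had log2 fold changes of 0.13 and 0.18 and passed no test, so that all 6 ring subunits had values between 0.13 and 0.35 in the fit of 6 libraries.

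In the fit of 6 libraries, the loader CDC6 was the 1 licensing gene with a negative value. It had normalized counts of 2034, 2306 and 2185 in shControl and 1808, 1907 and 2015 in shSQLE, each shSQLE library below each shControl library by a narrow margin, and a log2 fold change of -0.19 (-0.43 to 0.053, edgeR adjusted p = 0.485). Without shControl 1 it was -0.23 (edgeR adjusted p = 0.0401), and with the offsets -0.18 (edgeR adjusted p = 0.109). CDT1, the other loader, had normalized counts of 1455, 865 and 786 in shControl and 1165, 1222 and 869 in shSQLE, with shControl 1 above all other libraries. Its log2 fold change of 0.070 (-0.50 to 0.64) became 0.40 without that library (edgeR adjusted p = 0.0313). The ORC subunits ORC1 and ORC6 had log2 fold changes of 0.15 and 0.049 and were not called in either fit.

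Of the 6 genes that turn the ring into a working helicase, 0 were called with 6 libraries, and the log2 fold changes ran from 0.068 to 0.30. GINS4 (ENSG00000147536, chromosome 8, 41529218 to 41545030), a subunit of the GINS complex, had normalized counts of 666, 869 and 865 in shControl and 961, 946 and 1055 in shSQLE without overlap between the groups, and a log2 fold change of 0.30 (edgeR adjusted p = 0.370). Without shControl 1, its lowest library, the value was 0.19 (edgeR adjusted p = 0.118), and with the offsets it was 0.29 and called (edgeR adjusted p = 0.0297). CDC45, which joins GINS on the ring, had normalized counts of 958, 949.5 and 866 in shControl and 1089, 1138 and 933 in shSQLE, where the groups overlapped, and a log2 fold change of 0.19 (edgeR adjusted p = 0.561). GINS2 had normalized counts of 1773, 1281 and 1262 in shControl and 1611, 1719.9 and 1417 in shSQLE, with shControl 1 above every other library. Its log2 fold change was 0.14 with and 0.32 without that library, the second called (edgeR adjusted p = 0.0202), and GINS2 overlaps GSE1 on the opposite strand. GINS1, GINS3 and MCM10, which helps the helicase to fire, had log2 fold changes of 0.068, 0.10 and 0.13 and were not called in either fit, with GINS1 and MCM10 at -0.038 and -0.011 without shControl 1. GINS1 overlaps NINL on the opposite strand.

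For the clamp and its loader, log2 fold changes ran from 0.032 to 0.15 and 0 were called with 6 libraries. PCNA, the sliding clamp and a common marker of proliferating cells, had mean normalized counts of 3543 ± 50.1 in shControl and 3623 ± 152 in shSQLE (SD, n = 3 each). Its log2 fold change was 0.032 with a 95% interval of -0.18 to 0.25. The loader subunit RFC4 had normalized counts of 1167, 1161 and 1134 in shControl and 1238, 1231 and 1246 in shSQLE. RFC5, another subunit, had 889, 984 and 984 in shControl and 1097, 1038 and 1042 in shSQLE. Both showed no overlap between groups but small differences of 0.10 and 0.15 on the log2 scale (edgeR adjusted p = 0.720 and 0.600), and they overlap EIF4A2 and WSB2 on the opposite strand. RFC2 had normalized counts of 1722, 1135 and 1174 in shControl and 1383, 1490.2 and 1306 in shSQLE, where shControl 1 exceeded all other libraries, and it was called higher without that library (log2 fold change 0.27, edgeR adjusted p = 0.0291) against a log2 fold change of 0.053 with it. RFC3 had a log2 fold change of 0.087 with 6 libraries and -0.082 without shControl 1 and was not called in either fit.

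Among the polymerases, POLD1 had the largest log2 fold change above 0 of the 39 genes with 6 libraries, while TK1 and POLA2 exceeded it without shControl 1. POLD1 (ENSG00000062822, chromosome 19, 50384204 to 50418018) is the catalytic subunit of DNA polymerase delta, which makes the lagging strand. It had normalized counts of 1401, 1034 and 1074 in shControl and 1495, 1607 and 1416 in shSQLE, or 1169.5 ± 201 in shControl and 1506 ± 95.6 in shSQLE (SD, n = 3 each). The highest control, shControl 1, lay just below the lowest shSQLE library. The log2 fold change was 0.37 (standard error 0.14, 0.036 to 0.69, unadjusted p = 0.0336 and adjusted p = 0.281 in edgeR), and 0.52 without shControl 1 (edgeR adjusted p = 0.00102). POLE, the catalytic subunit of polymerase epsilon on the leading strand, had normalized counts of 1648, 1649 and 1651 in shControl and 1599, 1671 and 1930.2 in shSQLE, where the groups overlapped, and a log2 fold change of 0.072 (edgeR adjusted p = 0.844).

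The subunits of DNA polymerase alpha were those in which shControl 1 lay furthest from the other controls among the 39 genes. POLA2, its accessory subunit, had normalized counts of 343, 169 and 164 in shControl and 246, 249 and 222 in shSQLE. POLA1, its catalytic subunit, had 282, 551 and 522 in shControl and 516, 422 and 577 in shSQLE. In POLA2 shControl 1 was 1.04 above the mean of the other controls on the log2 scale, and in POLA1 it was -0.93 from it. The log2 fold change of POLA2 was 0.093 with 6 libraries (-0.56 to 0.75) and was called higher at 0.52 without shControl 1 (edgeR adjusted p = 0.00761), whereas POLA1 turned from 0.16 to -0.088 and was called in neither. PRIM1, the primase that lays the RNA primer, and POLE2, an accessory subunit of polymerase epsilon, had log2 fold changes of 0.046 and 0.0088. POLD1, POLA2 and PRIM1 overlap other coding genes on the same strand, and PRIM1 also overlaps HSD17B6 on the opposite strand.

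Lagging strand maturation was represented by FEN1, the nuclease that trims the flap of an Okazaki fragment, and LIG1, the ligase that seals the nick. FEN1 had normalized counts of 2351, 1886 and 1814 in shControl and 2459.7, 2642 and 2397 in shSQLE, each shSQLE library above each control. The log2 fold change was 0.31 (0.016 to 0.60, unadjusted p = 0.0412 and adjusted p = 0.309 in edgeR) and 0.43 without shControl 1 (edgeR adjusted p = 0.00181). FEN1 overlaps FADS2 on the same strand, so that reads shared with it cannot be told apart here. LIG1 had normalized counts of 1537, 1105 and 1170.3 in shControl and 1277, 1446 and 1364 in shSQLE, with shControl 1 the highest of the 6 libraries, and a log2 fold change of 0.10 with and 0.26 without it (edgeR adjusted p = 0.0352 for the second).

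With 6 libraries the nucleotide supply genes had the highest median log2 fold change of the roles with more than 1 gene, 0.30. Without shControl 1 their median was 0.27, below the 0.35 of FEN1 and LIG1. Of the 4 genes, 3 were called higher both without shControl 1 and with the offsets, none with 6 libraries. TYMS (ENSG00000176890, chromosome 18, 657653 to 673578), the thymidylate synthase that makes dTMP, had normalized counts of 7040.5, 6693 and 6566 in shControl and 8374, 8675 and 7969.7 in shSQLE, or 6766 ± 246 in shControl and 8339.7 ± 354 in shSQLE (SD, n = 3 each). The groups were apart by more than either group's range, at a log2 fold change of 0.30 (standard error 0.094, 0.084 to 0.52, unadjusted p = 0.0127 and adjusted p = 0.172 in edgeR). Without shControl 1 it was 0.33 (edgeR adjusted p = 0.00612), and TYMS overlaps ENOSF1 on the opposite strand. RRM2, the regulatory subunit of ribonucleotide reductase whose level limits dNTP synthesis, had normalized counts of 3143, 3780.1 and 3844 in shControl and 4304, 4399 and 4577 in shSQLE. It too showed no overlap, at a log2 fold change of 0.30 (0.045 to 0.56, edgeR adjusted p = 0.253), or 0.22 without shControl 1 (edgeR adjusted p = 0.0391). TK1, the salvage thymidine kinase, had normalized counts of 1281, 749.7 and 674 in shControl and 1126, 1196 and 1007 in shSQLE, with shControl 1 the highest library of all, and a log2 fold change of 0.30 (-0.24 to 0.85) that became 0.64 without it (edgeR adjusted p = 0.000607). RRM1, the large reductase subunit, had a log2 fold change of 0.094 with 6 libraries and -0.0023 without shControl 1. UHRF1, which brings DNA methylation to newly made strands, had normalized counts of 1843, 2651 and 2718 in shControl and 2573, 2462 and 2708 in shSQLE, and a log2 fold change of 0.10, or -0.056 without shControl 1, and was called in neither fit.

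Per kilobase of the canonical transcript, mean levels ranged over the 39 genes from POLA2, at 63.6 in shControl and 67.5 in shSQLE, to TYMS, at 4195 in shControl and 5170.3 in shSQLE normalized counts per kb. After TYMS came MCM7 (3257 in shControl and 3660.1 in shSQLE), PCNA (2776 in shControl and 2839 in shSQLE) and CCND1 (2467 in shControl and 2643 in shSQLE). The DNA polymerase subunits POLA1 (82.3 in shControl and 92.0 in shSQLE) and POLE (211 in shControl and 222 in shSQLE) were in the lower part of the order, as was CCNE1 (238 in shControl and 162 in shSQLE).

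The spread of these genes within a group depended on shControl 1. Their median coefficient of variation was 12.1% over the 3 shControl libraries, 2.26% over shControl 2 and 3, and 5.42% over the shSQLE libraries, against 17.1%, 3.35% and 7.85% for the 8131 genes tested at or above the lowest mean level of the 39. shControl 1 lay above both other controls in 18 genes (46.2%, against 44.6% of all genes tested), below both in 19 (48.7%, against 47.7%) and between them in 2. Its difference from them rose with the GC content of the transcript, with Pearson's r of 0.757 and Spearman's rho of 0.768 across the 39 genes and 0.716 and 0.735 across 12447 genes tested, where genes share the library and are not independent replicates. The genes in which it lay above had a median GC content of 53.1% and those below 44.2%. CDT1 and TK1, with GC contents of 64.3% and 60.3%, lay 0.82 and 0.85 above, while CCNE2, at 34.6%, lay at -0.81. With length, the r was -0.21 for the 39 genes and -0.54 for all. The part of GC content in the differences between shSQLE and shControl was not tested beyond the fit with offsets.

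**Figure D4:**
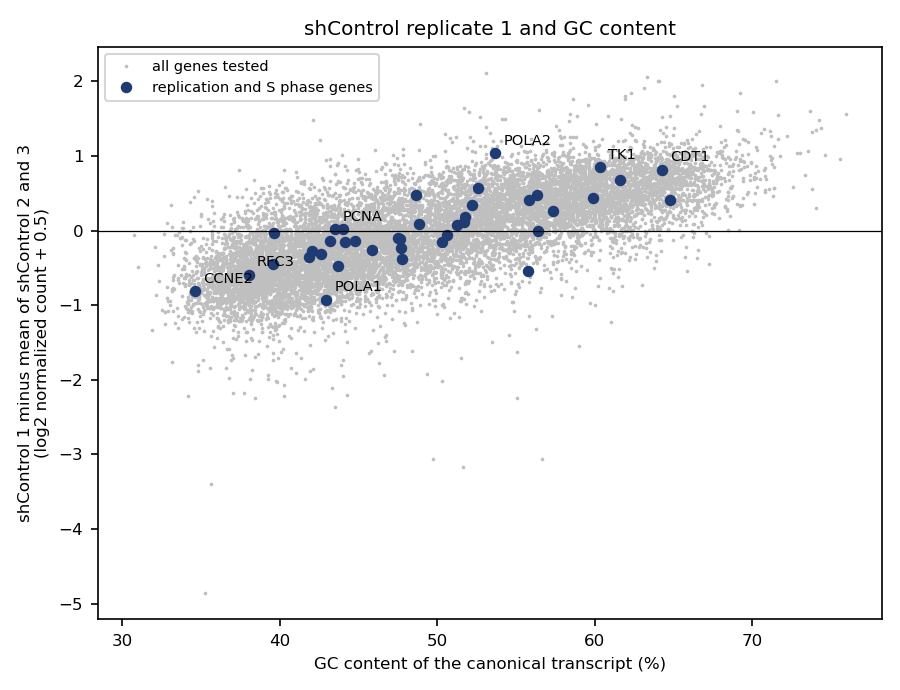
Difference of shControl 1 from the mean of shControl 2 and 3 on the log2 scale (y axis, normalized count plus 0.5) against the GC content of the canonical transcript in percent (x axis) for 12447 genes tested (grey) and the 39 replication and S phase genes (blue). The blue points follow the grey cloud upward, from CCNE2 and POLA1 below 0 to POLA2, TK1 and CDT1 above it.

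Other genes of the pathway, listed by role, also had few calls with 6 libraries. Another 89 tested genes served licensing and firing, the fork, nucleotide supply, G1/S control and S phase chromatin. Of these, 0 passed an adjusted p of 0.05 in edgeR with 6 libraries, against 3.21% of all genes tested. An unadjusted p under 0.05 in edgeR was seen in 8 of the 89, against 14.7% of all genes tested. The median log2 fold change of the 89 was 0.029. DESeq2 called 2 of the 89 (2.25%, against 5.01% of all genes tested), SKP2 and NASP, both higher. Without shControl 1, 17 were called lower and 21 higher (42.7%, against 33.9% of all genes). By list the medians were 0.02 for 17 other licensing and firing genes, 0.11 for 22 other fork genes, 0.01 for 12 other nucleotide genes, 0.01 for 25 other G1/S regulators and 0.11 for 13 S phase chromatin genes. Without shControl 1 they were -0.10, 0.079, 0.084, 0.00084 and -0.071 in the same order, so that the sign turned for licensing and firing and for S phase chromatin. The 24 G2/M and mitosis genes had a median of 0.18 with all 24 above 0 and 1 called higher (4.17%, against 0.369% of all genes tested called higher). Without shControl 1 their median was 0.25, with 15 above 0 and 12 called higher. The 12 were 50%, against 15.6% of all genes tested in that fit called higher. At least 21 of 24 were above 0 in each other fit run.

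The genes of each list with the smallest p were as follows. SKP2, the ubiquitin ligase subunit that targets the inhibitor p27, had normalized counts of 885, 1196 and 1233 in shControl and 1609.8, 1561 and 1744 in shSQLE without overlap, a log2 fold change of 0.57 (edgeR adjusted p = 0.0961, and 0.00252 without shControl 1). NASP, a histone chaperone, had normalized counts of 4843, 4505 and 4458 in shControl and 5952, 6285 and 5953 in shSQLE, and a log2 fold change of 0.40 (edgeR adjusted p = 0.0721, and 0.00111 without shControl 1). CCNB1, the cyclin B1 of mitotic entry, had normalized counts of 3109, 3230.2 and 3059.6 in shControl and 4230.1, 4256 and 4410.4 in shSQLE, and a log2 fold change of 0.46. It was the 1 gene of the lists called in edgeR with 6 libraries (adjusted p = 0.0399), and that call was lost on leaving out any library other than shControl 1 (adjusted p = 0.148 to 0.215) and without composition factors, without the filter or with the replicate block. The mitotic kinase AURKA and the phosphatase CDC25C had log2 fold changes of 0.37 and 0.46, and were called higher without shControl 1 at 0.35 and 0.55 (edgeR adjusted p = 0.00430 and 0.00286).

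None of the other genes of smallest p was called with 6 libraries. DBF4B, the partner of a firing kinase, GMNN (geminin, the inhibitor of CDT1) and the firing kinase CDC7 had log2 fold changes of 0.29, 0.22 and 0.24. Without shControl 1 DBF4B and GMNN were called higher at 0.29 and 0.28 (edgeR adjusted p = 0.0453 and 0.0360), while CDC7 was 0.051 and not called. The single-strand binding subunits RPA3 and RPA2 and the fork protection factor TIMELESS had log2 fold changes of 0.44, 0.30 and 0.23. RPA3 and RPA2 were called higher without shControl 1, at 0.56 and 0.36 (edgeR adjusted p = 0.00258 and 0.00642), and TIMELESS was not, at 0.20. SAMHD1, which degrades dNTPs, had normalized counts of 403, 443 and 449 in shControl and 302, 356 and 309 in shSQLE, and a log2 fold change of -0.42, and was called lower without shControl 1 (log2 fold change -0.47, edgeR adjusted p = 0.00642). CTPS1 and DUT, which make CTP and remove dUTP, had log2 fold changes of 0.26 and 0.22, and were called higher without shControl 1 at 0.27 and 0.25 (edgeR adjusted p = 0.0232 and 0.0386). E2F7, a repressor of E2F targets, had normalized counts of 535, 1037 and 1115 in shControl and 602, 521 and 679 in shSQLE, in which shControl 1 lay among the shSQLE libraries, and a log2 fold change of -0.58 with 6 libraries against -0.84 without shControl 1 (edgeR adjusted p = 0.372 and 0.000141). CDK4, the maintenance methyltransferase DNMT1 and the histone chaperone ASF1B had log2 fold changes of 0.29, 0.18 and 0.21. Without shControl 1 CDK4 and ASF1B were called higher at 0.50 and 0.39 (edgeR adjusted p = 0.00124 and 0.00721), and DNMT1 was 0.11 and not called.

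**Figure D5:**
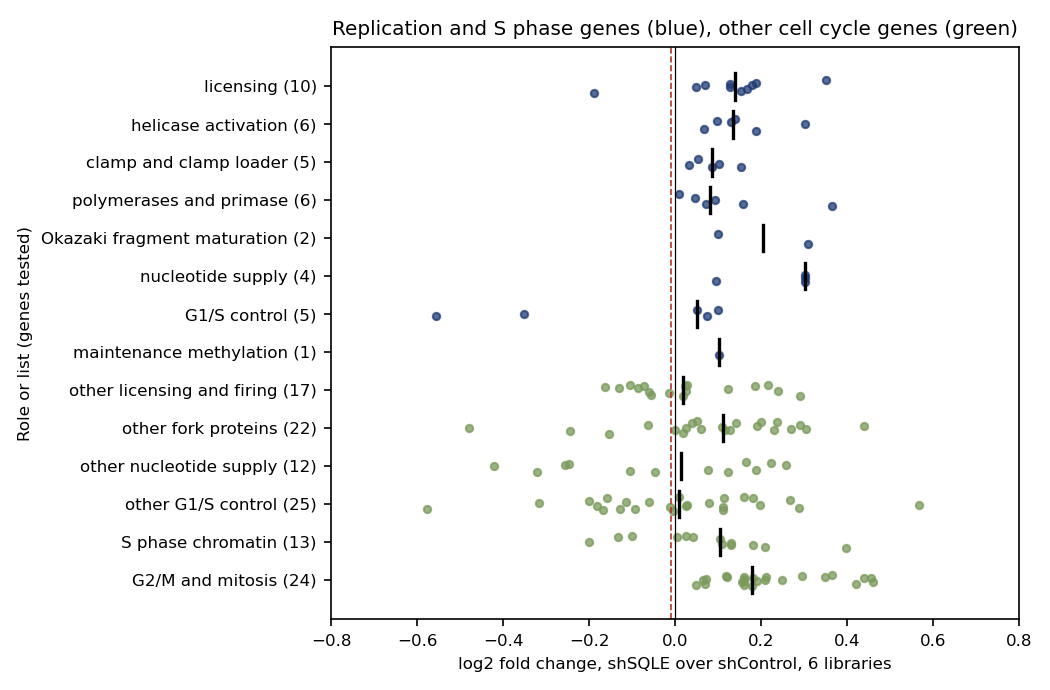
Log2 fold change, shSQLE over shControl with 6 libraries (x axis), of each of the 39 genes by role (blue) and of other cell cycle genes by list (green), with the number of genes tested in brackets, black bars for medians and a dashed red line for the median of all genes tested (-0.01). CCNE1 and CCNE2 lie furthest left among the blue points, and all 24 G2/M and mitosis genes lie right of 0 (15 of 24 without shControl 1).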

How the data were processed

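Poly(A) RNA of 6 U2OS libraries was sequenced as paired reads by NewCore Biotech, which the paper also credits with the data processing. Per the labels and the submitters' processing notes, fastp 0.20.0, STAR 2.7.9a with hg38 and featureCounts 2.0 were used. What the authors deposited is a table of unnormalized counts by Ensembl gene. How strand and multiply mapped reads were treated is not given in the sources used here, so overlapping genes are less certain. The 39 genes, the other lists and the tests were chosen with earlier results of these data known.

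In this re-analysis, 12450 genes kept by filterByExpr were scaled by TMM, and the groups were compared in edgeR 4.0.16 (R 4.3.3) by its quasi-likelihood test, group as the only term, Benjamini-Hochberg adjustment over all genes tested and a threshold of 0.05. Standard errors were taken from the log2 fold change and the F statistic (its root as the divisor), and intervals are 95%. Totals of 12212378 to 14393292 counts put every one of the 39 genes above the floor of 3 counts in each library, and counting error and spread between libraries were not separated. The scripts were tested on simulated data. DESeq2 1.42.0, 3 other scalings, 2 other filters, a replicate block, leaving out each library, a threshold of 0.1 and, added after seeing the data, offsets for GC content and length (mgcv 1.9.3) were alternatives. The study's own fits used DESeq2. Values in every library are given for genes past the threshold with 6 libraries or without shControl 1 and for at least the 2 of smallest p in each role, and other lists by their 3 of smallest p.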

Additional observations from a re-analysis of the deposited data

How the results depend on the processing

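The number of replication and S phase genes called depended on 1 library and on the fit. With 6 libraries edgeR called 0 of 39, and over the fits that left out 1 library the count ran from 0 to 17 (0 to 14 higher, 0 to 3 lower), 17 being the fit without shControl 1 and 0 the other 5. DESeq2 called 1 (lower), a threshold of 0.1 called 1 (lower), and the GC content and length offsets 9 (8 higher, 1 lower). Among all genes the count was 400 with 6 libraries, 708 with DESeq2, 637 at a threshold of 0.1, 2184 with the offsets and 109 to 4264 on leaving out 1 library, 109 being the fit without any 1 shSQLE library. The median log2 fold change of the 39 genes stayed above 0 in every fit run, at 0.12 with DESeq2, 0.11 with RLE and with upper-quartile factors, 0.068 with library size only (where the median of all genes was -0.050) and 0.11 to 0.14 on leaving out 1 library. Log2 fold changes near 0 turned sign in some fits. With library size only PCNA was -0.0085, PRIM1 -0.00053 and POLE2 -0.034, and with the offsets ORC6 was -0.041, PCNA -0.060, PRIM1 -0.020, POLE2 -0.046 and CDK2 -0.0074. Over the fits that left out 1 library the ranges were -0.088 to 0.14 for PRIM1, -0.034 to 0.067 for POLE2, -0.033 to 0.15 for ORC6, -0.011 to 0.25 for MCM10, -0.038 to 0.15 for GINS1, -0.082 to 0.21 for RFC3, -0.088 to 0.33 for POLA1, -0.0023 to 0.15 for RRM1, -0.020 to 0.096 for CDK2, -0.056 to 0.21 for UHRF1, -0.084 to 0.40 for CDT1, -0.054 to 0.27 for RFC2, -0.081 to 0.52 for POLA2 and -0.041 to 0.34 for E2F1. SQLE stayed called, at -3.12 to -2.87. The cause of these shifts was not tested.

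In the other lists, leaving out 1 library gave 0 to 7 calls in licensing and firing, 0 to 9 in fork genes, 0 to 7 in nucleotide supply, 0 to 10 in G1/S control, 0 to 5 in S phase chromatin and 0 to 12 in G2/M and mitosis. The upper values came from the fit without shControl 1, which called 33.9% of all genes tested. Its shares of the lists were 41.2%, 40.9%, 58.3%, 40%, 38.5% and 50% in the same order. The offsets gave 2, 7, 2, 3, 1 and 11 in the same order. These were 11.8%, 31.8%, 16.7%, 12%, 7.69% and 45.8% of the lists, against 17.5% of all genes tested. DESeq2 and the threshold of 0.1 each gave 1 in G1/S control, 1 in S phase chromatin and 2 in G2/M and mitosis. With DESeq2 these were 4%, 7.69% and 8.33% of the lists, against 5.01% of all genes tested. Library size only, no filter and the replicate block each gave 0 in G2/M and mitosis.

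The replicate numbers of the labels marked no pairing: deviations of same-numbered libraries correlated at 0.14, -0.43 and 0.54, and not every library correlated best with its own number. With the replicate number as a block, 0 of the 39 genes and 396 genes in all were called, and the median of the 39 was 0.12.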
